A study of Arabidopsis thaliana with 38 samples.

Results

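SWEET genes encode small membrane proteins that let sugars pass down their concentration gradient. The genes described here are 10 of the 17 Arabidopsis SWEET loci: SWEET1, SWEET2, SWEET3, SWEET4, SWEET10, SWEET11, SWEET12, SWEET15, SWEET16 and SWEET17. They were chosen by locus and not by a cut on measured values, with earlier results of these data known. Every probe set annotated to exactly 1 of these loci was used. That gave 9 probe sets among the 22746 tested, 1 for each locus except SWEET12 (AT5G23660), which had no entry in the probe annotation and was not analysed here.

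SWEET proteins work without an energy source and move either hexoses or sucrose across the plasma membrane or the vacuolar membrane (tonoplast). In leaves they are best known for sucrose efflux next to the phloem, and those of the tonoplast for the exchange of stored sugars with the cytosol. Leaves that acclimate to cold accumulate soluble sugars, and sugar transport across the tonoplast has been linked to freezing tolerance in Arabidopsis. The transporters themselves are proteins, and the measurements below are of their mRNAs only.

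The series followed the mRNAs of 25-day-old rosettes of the Col-0 accession through cold in 3 pools: total RNA, polysomal RNA (mRNA carrying at least 2 ribosomes) and RNA recovered with the cold shock domain protein CSP1 (CSP1-IP). HF-RPL18 stands for 35S:HF-RPL18, whose tagged ribosomal protein is driven by the 35S promoter, and it was the reference line with 3 arrays per group. CSP1-FH stands for 35S:AtCSP1-FH#11, a single transgenic line with tagged CSP1 under the same broadly active promoter. The mutant atcsp1-1 carries no tag by its label, and both it and CSP1-FH had 2 arrays per group. Cold plants of each line stood for 12 h at 4 °C under about 50 µE per s and m2 of light, and non-stress plants stood at 23 °C under about 100 µE per s and m2. Temperature and light changed together and cannot be told apart. CSP1-IP was made after formaldehyde cross-linking of leaves, with antibody on Protein A beads, in HF-RPL18 and CSP1-FH. Neither a fraction from beads without the antibody nor CSP1-IP RNA of atcsp1-1 was analysed here, so recovery below is a comparison with total or polysomal RNA only.

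Of the 38 arrays, 14 held total RNA, 14 polysomal RNA and 10 CSP1-IP RNA, and all values are RMA log2 values per probe set. Mesophyll genes were bright (RCA 12.91, ATPC1 11.95 and LHCB4.2 11.71 on average). The root markers EXPA7 and PYK10 averaged 3.59 and 4.90, and PYK10 ranged from 2.73 to 7.08 over the arrays. Of the markers listed, 3 of 10 for mesophyll and 2 of 5 for root had a named probe set. No named probe set stood for CSP1 or for the tagged RPL18, so the targeted gene could not be checked by name. The CSP1-IP arrays stood apart: their SD over probe sets was 1.83 to 2.14 against 2.22 to 2.32 on the others, and their mean SD within groups was 0.454 against 0.222 for total and 0.261 for polysomal RNA. Each array was therefore weighted by its pool (0.327, 1.79 and 1.24). In addition, the GAPDH 3′ control exceeded the 5′ control by a median of 6.9 on CSP1-IP arrays, against 1.29 and 1.47 on total and polysomal arrays.

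The 9 SWEET probe sets covered most of the range of the arrays. Averaged over 38 arrays, SWEET11 (AT3G48740) was at 9.60, SWEET1 (AT1G21460) at 6.99, SWEET17 (AT4G15920) at 6.86, SWEET2 (AT3G14770) at 6.05, SWEET4 (AT3G28007) at 5.07 and SWEET15 (AT5G13170, also named SAG29) at 4.82. Brightness depends on the probes as well as on the mRNA, so these figures do not rank the genes by abundance. SWEET16 (AT3G16690, 3.37), SWEET10 (AT5G50790, 3.32) and SWEET3 (AT5G53190, 3.24) lay just above 3.13, the level below which lay the dimmest 25% of all probe sets. Their values leave little room to fall.

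**Figure D1:**
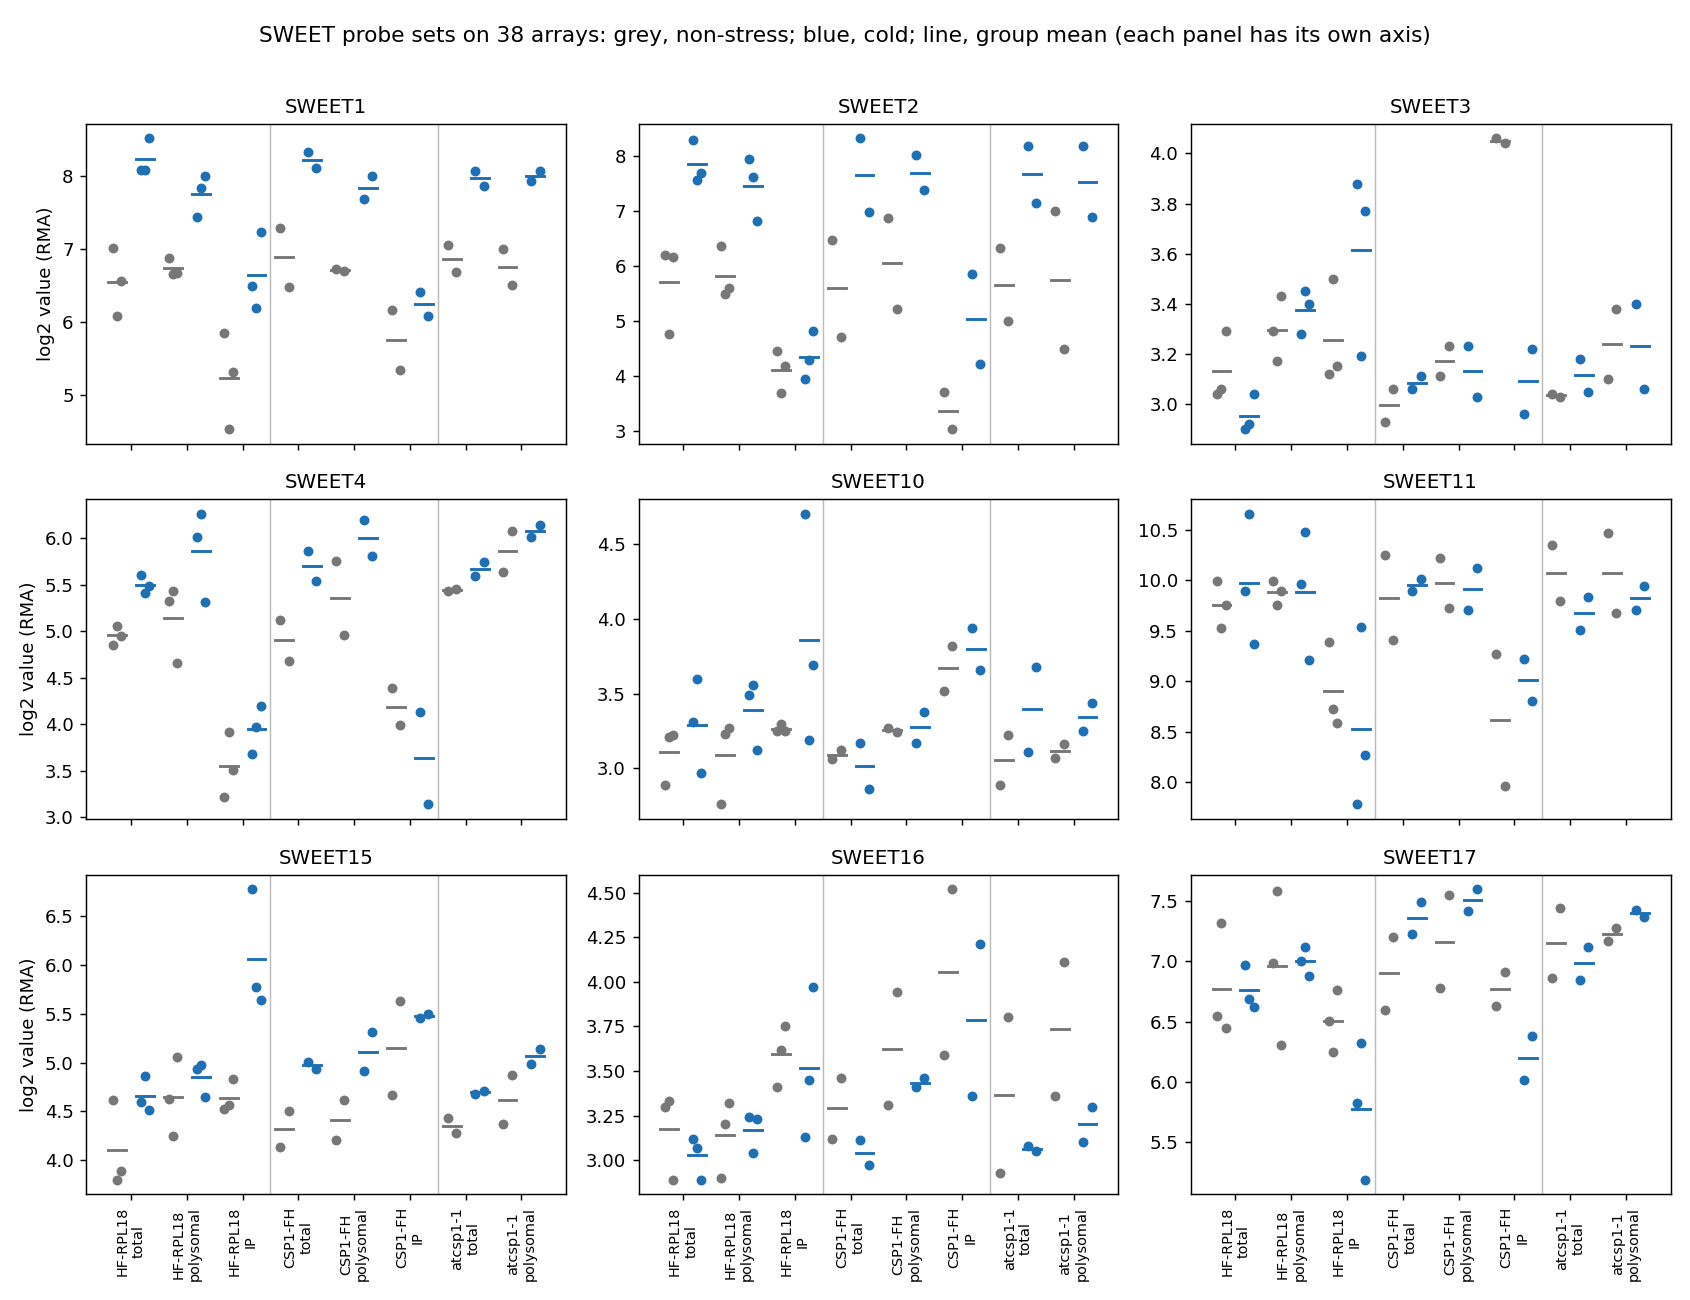
RMA log2 values of the 9 SWEET probe sets (1 panel each, with its own vertical axis) in every line and RNA pool; each point is 1 array, grey for non-stress and blue for cold, and short lines are group means. SWEET1 and SWEET2 are higher in the cold in total RNA of all 3 lines, and SWEET4 is lower in CSP1-IP than in the other pools.

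The first question was which SWEET mRNAs change with cold. SWEET1 and SWEET2 rose in total RNA of all 3 lines, SWEET4 rose in HF-RPL18 and CSP1-FH, and SWEET15 rose in HF-RPL18. No member fell. A probe set was called when its limma p-value, adjusted by the Benjamini-Hochberg method over all probe sets, lay below 0.05. In HF-RPL18 4 of 9 members were called, where 22.6% of all probe sets were called. In CSP1-FH 3 of 9 were called against 16.2% of all, and in atcsp1-1 2 of 9 against 18.3%. The median of the 9 differences was 0.21, 0.46 and 0.23 in these lines, beside −0.02, −0.03 and −0.02 over all probe sets. These rosettes are mixtures of cell types, so a change in the number of cells of a type and a change in mRNA per cell cannot be told apart.

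SWEET1, a plasma membrane transporter that carries glucose, gave the firmest rise. In total RNA of HF-RPL18 its 3 non-stress arrays read 7.01, 6.08 and 6.56, and its 3 cold arrays read 8.08, 8.08 and 8.51. All cold arrays lay above all non-stress arrays. The rise was 1.67 on the log2 scale (SE 0.21, 95% interval 1.24 to 2.1, adjusted p = 7.09e-07), or 3.18-fold. The group means ± SD (n = 3) were 6.55 ± 0.47 and 8.22 ± 0.25. In CSP1-FH it went from 7.28 and 6.48 to 8.32 and 8.10, a rise of 1.33 (SE 0.26, adjusted p = 0.00045). In atcsp1-1 it went from 7.05 and 6.68 to 8.07 and 7.86, a rise of 1.1 (SE 0.26, adjusted p = 0.0025). Neither line showed overlap between the conditions. The call in atcsp1-1 was lost with equal weights for all arrays (adjusted p = 0.0652) and without non-stress total array 2 (0.92, adjusted p = 0.0563). Leaving out 1 array of CSP1-FH or atcsp1-1 leaves a group of 1 array, which is then assumed to vary like the other groups.

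SWEET4, a hexose transporter of the plasma membrane that acts in the vascular tissue, rose by less. Its total RNA values in HF-RPL18 were 4.85, 5.06 and 4.95 in non-stress and 5.60, 5.41 and 5.48 in the cold. The conditions did not overlap and the spread within each was small. The rise was 0.54 (SE 0.19, adjusted p = 0.0388), 1.46-fold, and in CSP1-FH it was 0.80 (SE 0.23, adjusted p = 0.0174). In atcsp1-1 the values were 5.43 and 5.45 against 5.59 and 5.74, a difference of 0.23 (SE 0.23, adjusted p = 0.633) that did not pass. These were among the least firm calls. The HF-RPL18 call was lost without any 1 of its 6 arrays (adjusted p between 0.0513 and 0.126) and with equal weights (adjusted p = 0.25). The CSP1-FH call was lost with equal weights (adjusted p = 0.185), without total cold array 1 (0.64, adjusted p = 0.167) and without total non-stress array 2 (0.58, adjusted p = 0.245).

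SWEET2, a tonoplast transporter known in roots for limiting the loss of sugar to the soil, had the largest rise among the members. In total RNA of HF-RPL18 it read 6.20, 4.76 and 6.17 in non-stress and 8.30, 7.56 and 7.69 in the cold. All cold arrays were higher than all non-stress arrays, although the latter spread over more than 1 log2 unit. The rise was 2.15 (SE 0.52, 95% interval 1.07 to 3.22, adjusted p = 0.00296), or 4.43-fold. In CSP1-FH the values were 6.48 and 4.70 against 8.32 and 6.98, a rise of 2.06 (SE 0.64, adjusted p = 0.0257). In atcsp1-1 they were 6.32 and 5.00 against 8.19 and 7.15, a rise of 2.01 (SE 0.64, adjusted p = 0.0272). Both calls were lost with equal weights (adjusted p = 0.114 and 0.109). In CSP1-FH the call was also lost without cold total array 1 (1.39, adjusted p = 0.291) or non-stress total array 2 (1.17, adjusted p = 0.416), and in atcsp1-1 without the same pair of arrays (1.49, adjusted p = 0.261, and 1.35, adjusted p = 0.319).

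The other tonoplast members gave no call. SWEET17, a fructose transporter of the vacuole in roots and leaves, differed by −0.02 in HF-RPL18 (SE 0.23, 95% interval −0.48 to 0.45), by 0.46 in CSP1-FH and by −0.16 in atcsp1-1. SWEET16, a vacuolar carrier of several sugars whose overexpression was reported to alter freezing tolerance, lay between 2.89 and 3.80 in all total RNA arrays. Its dim probe set gave no difference that passed in any line.

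Among the members linked to sucrose efflux, SWEET11 did not differ detectably and SWEET15 rose in 1 line. SWEET11 exports sucrose from phloem parenchyma together with SWEET12. In total RNA of HF-RPL18 it read 9.99, 9.53 and 9.76 in non-stress and 9.89, 10.66 and 9.37 in the cold. The conditions overlapped, and the difference of 0.21 had a 95% interval of −0.37 to 0.79 (adjusted p = 0.707). The probe sequences were not used here, so cross-reaction of this probe set with its close relative SWEET12 was not tested.

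SWEET15, a senescence-associated gene that also feeds seeds, read 4.62, 3.80 and 3.89 in non-stress and 4.60, 4.86 and 4.51 in the cold of HF-RPL18. Non-stress array 1 lay within the range of the cold arrays. The rise of 0.56 (SE 0.19, adjusted p = 0.033) was lost with equal weights (adjusted p = 0.243) and without non-stress array 2 (0.40, adjusted p = 0.193), non-stress array 3 (0.45, adjusted p = 0.151), cold array 1 (0.58, adjusted p = 0.0615) or cold array 2 (0.45, adjusted p = 0.154). Its difference was 0.65 in CSP1-FH (adjusted p = 0.0549) and 0.34 in atcsp1-1 (adjusted p = 0.388). SWEET10, a sucrose transporter active around flowering, and SWEET3, whose substrate is less well described, gave no call in any line.

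Polysomal RNA asks which of these mRNAs also stood higher in the polysomal pool in the cold. Array medians lay between 4.24 and 4.52 in all pools, so a value is relative to the other mRNAs of its pool. A change in the whole amount of polysomal RNA was not measured. SWEET1 rose in polysomal RNA of all 3 lines and SWEET4 rose in that of HF-RPL18. HF-RPL18 gave 2 called members (14.5% of all probe sets were called), and CSP1-FH and atcsp1-1 gave 1 each (7.93% and 10.4% of all). SWEET1 read 6.87, 6.65 and 6.67 in non-stress polysomes of HF-RPL18 and 7.44, 7.83 and 7.99 in the cold. Its conditions did not overlap, and the rise was 1.03 (SE 0.25, adjusted p = 0.00489), or 2.04-fold. It rose by 1.13 in CSP1-FH (adjusted p = 0.0189) and by 1.25 in atcsp1-1 (adjusted p = 0.00719). Leaving out any 1 of its 4 arrays ended the CSP1-FH call (0.98 to 1.29, adjusted p between 0.0579 and 0.214). The atcsp1-1 call was lost without non-stress array 2 (1.01, adjusted p = 0.124) or cold array 2 (1.18, adjusted p = 0.0752).

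SWEET4 read 5.32, 5.43 and 4.66 in non-stress polysomes of HF-RPL18 and 6.01, 6.26 and 5.31 in cold ones. Replicate 3 was the lowest array in both conditions, so the conditions overlapped. Taken by number, the differences were all positive, at 0.69, 0.82 and 0.65. The rise of 0.72 (SE 0.23, adjusted p = 0.032) had an adjusted p of 0.00258 with the replicate number as a block. It was lost with equal weights (adjusted p = 0.0959), without cold array 1 (0.65, adjusted p = 0.111) or 2 (0.52, adjusted p = 0.203) and without non-stress array 3 (0.48, adjusted p = 0.201). In CSP1-FH the difference was 0.65 (adjusted p = 0.192) and in atcsp1-1 it was 0.21 (adjusted p = 0.787).

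**Figure D2:**
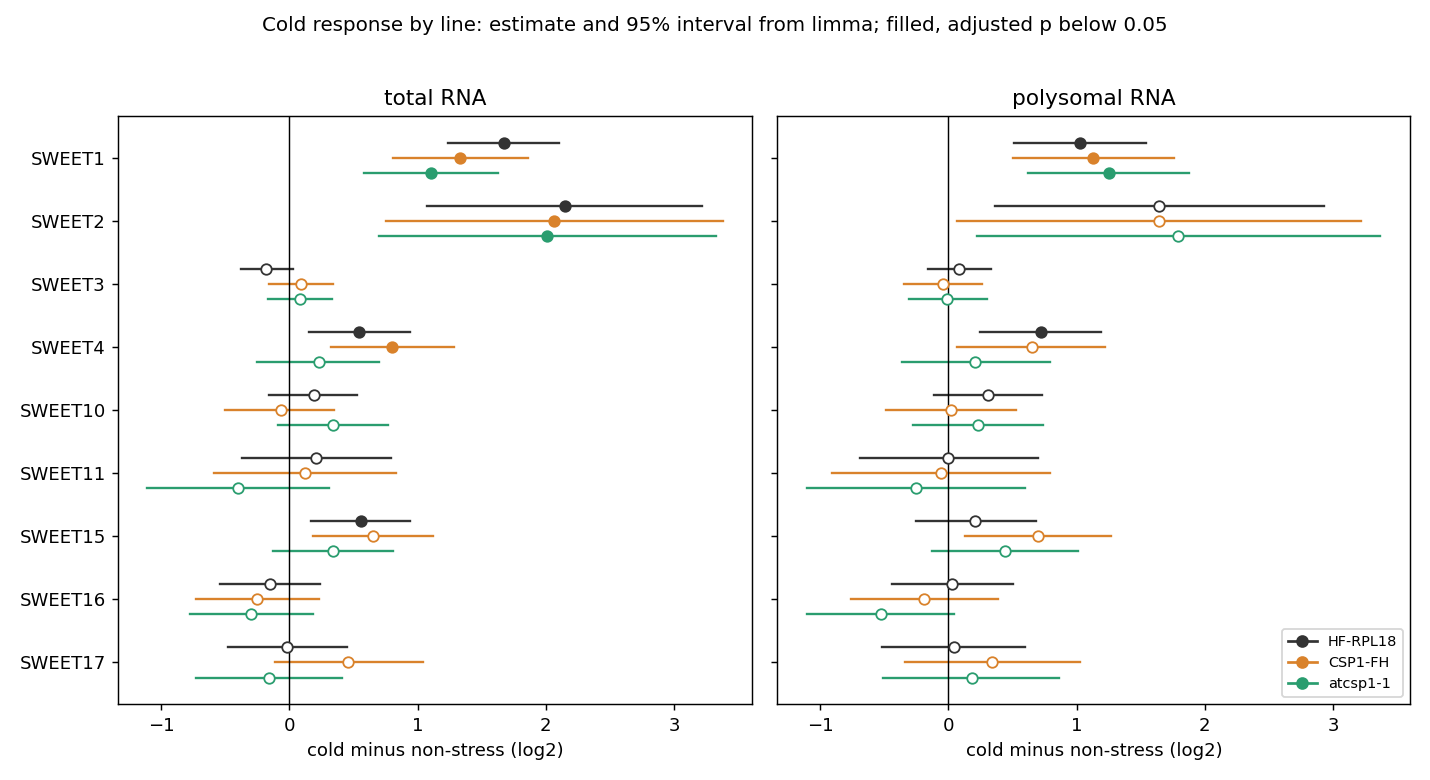
Cold minus non-stress difference on the log2 scale for each SWEET probe set in total (left) and polysomal (right) RNA of the 3 lines, with 95% intervals from limma; filled points were called. The intervals of the 3 lines overlap for every member in both pools.

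SWEET2 shows what the replicate numbers carried. Its polysomal difference in the cold was 1.64 in HF-RPL18 (SE 0.63, adjusted p = 0.0817), 1.64 in CSP1-FH (adjusted p = 0.241) and 1.79 in atcsp1-1 (adjusted p = 0.16), with no call. Without non-stress polysomal array 1 the atcsp1-1 difference was 3.05 and passed (adjusted p = 0.0269). In HF-RPL18 the same-numbered total and polysomal arrays deviated from their group means together, with correlations of 0.314 to 0.496 between the conditions in total RNA and 0.354 to 0.488 in polysomal RNA. With the replicate number as a block, SWEET2 passed in polysomal RNA of HF-RPL18 (1.64, adjusted p = 0.000209). Taken by number, the 3 cold minus non-stress differences there were 1.58, 2.13 and 1.22, and in total RNA they were 2.11, 2.80 and 1.53.

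Replicate 1 of SWEET2 was higher than replicate 2 in 12 of the 12 total and polysomal groups, by 0.33 to 2.51. No other member showed such a one-sided difference in all 12 groups: SWEET1 was higher in replicate 1 in 8 of them and SWEET4 in 5. SWEET10 and SWEET17 leaned the other way, with replicate 1 higher in 2 groups each. The groups are not independent, as same-numbered arrays deviated together in HF-RPL18. What the numbers stand for was not given in the sources used here, and scan or extraction batches were not tested.

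**Figure D3:**
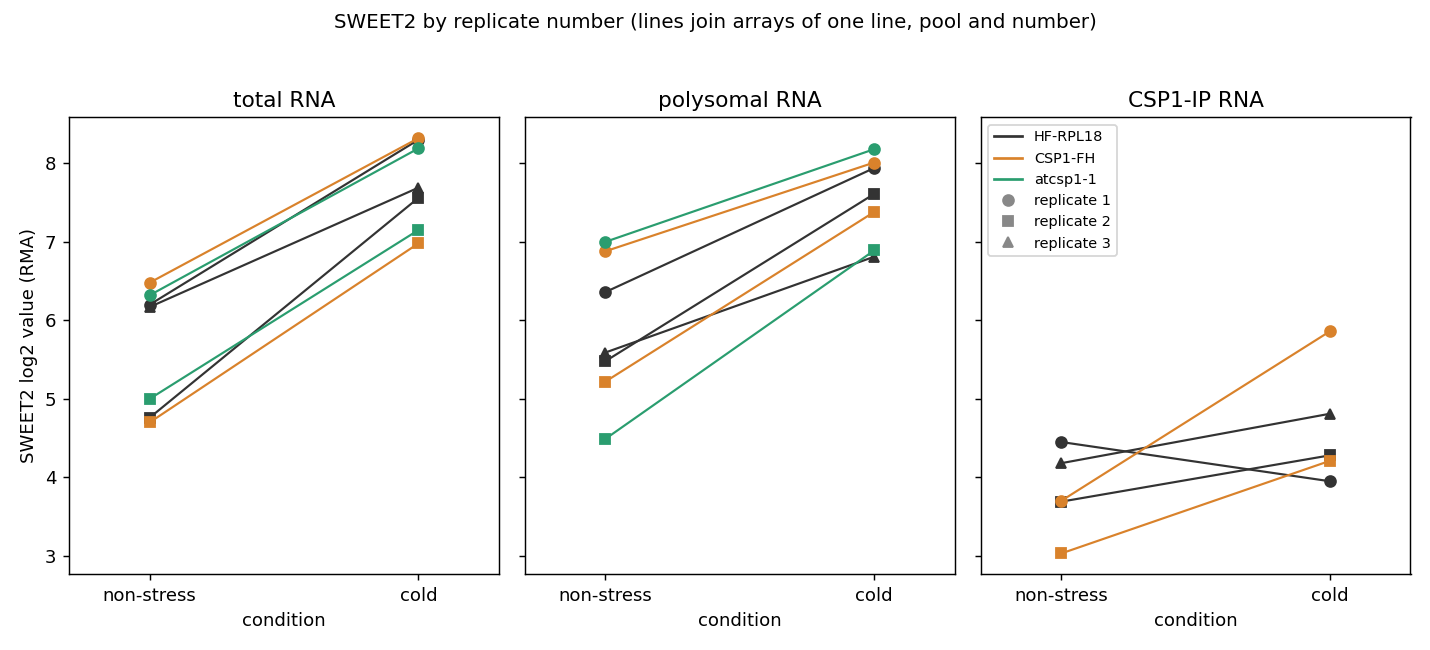
RMA log2 values of SWEET2 in non-stress and cold, joined by line, RNA pool and replicate number (marker shape). In total and polysomal RNA all 14 joined pairs rise and circles (replicate 1) lie above squares (replicate 2). CSP1-IP values lie lower, between 3.03 and 5.86, and every joined pair there rises except replicate 1 of HF-RPL18.

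Polysome loading was taken as the polysomal minus the total RNA value within a line and condition, and is likewise relative to other mRNAs. It gave 1 call in 54 member tests. That was SWEET3 in the cold of HF-RPL18, where 13.6% of all probe sets were called. Its polysomal arrays read 3.28, 3.45 and 3.40 against 2.90, 2.92 and 3.04 in total RNA, without overlap but close to the dimmest values of the arrays. The excess was 0.43 (SE 0.11, adjusted p = 0.0118), a call lost with equal weights (adjusted p = 0.156) and without polysomal cold array 2 (adjusted p = 0.0556) or 3 (adjusted p = 0.0536). SWEET8, a dim SWEET gene outside the chosen loci, was also called there (0.39, SE 0.13, adjusted p = 0.0401). In non-stress HF-RPL18 no member was called (7.43% of all probe sets). The share called among all probe sets was 4.45% in non-stress and 1.86% in cold CSP1-FH, and 0.651% and 1.49% in atcsp1-1, again with no member called. By unadjusted p below 0.05, 2 of the 54 tests passed. A block for the replicate number had 3298 probe sets in place of 1690 called in non-stress HF-RPL18 and 5150 in place of 3089 in the cold, and the members called stayed at 0 and 1.

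No loading value of a member exceeded 0.54 in size. That value was of SWEET15 in non-stress HF-RPL18, at 4.63, 4.25 and 5.06 on polysomes against 4.62, 3.80 and 3.89 in total RNA (95% interval 0.12 to 0.97, adjusted p = 0.116). There the loading of SWEET17 was 0.19 (−0.33 to 0.71), that of SWEET1 was 0.18 (95% interval −0.30 to 0.65), that of SWEET2 0.10 (−1.08 to 1.29), that of SWEET4 0.18 (−0.25 to 0.62) and that of SWEET11 0.12 (−0.52 to 0.76). In the cold, SWEET1 lay lower on polysomes with no overlap between the arrays, at 7.44, 7.83 and 7.99 against 8.08, 8.08 and 8.51. That difference of −0.47 (95% interval −0.94 to 0.01, adjusted p = 0.182) did not pass. Its change of loading with cold was −0.64 (SE 0.33, adjusted p = 1). No member passed for a change of loading with cold in any line, and none had an unadjusted p below 0.05 (0.0044% of all probe sets were called in HF-RPL18 and 0 in the other lines).

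Recovery with CSP1 was compared as CSP1-IP minus total RNA. In the cold of HF-RPL18 SWEET1, SWEET2, SWEET4 and SWEET11 were lower in CSP1-IP than in total RNA, and SWEET15 and SWEET3 were higher. Those are 6 of 9 members, where 45.6% of all probe sets were called, so calls were common in this comparison. In non-stress HF-RPL18 SWEET1 and SWEET4 were lower (2 of 9, against 22.2% of all probe sets). In CSP1-FH SWEET3 was higher in non-stress (1 of 9, against 25.3%), and SWEET1 and SWEET4 were lower in the cold (2 of 9, against 16.6%). The median over all probe sets was itself above 0, at 0.13 and 0.20 in non-stress and cold HF-RPL18 and 0.20 and 0.16 in CSP1-FH. Loess normalisation of all arrays moved these medians to within 0.01 of 0, and both sets of values are given below.

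SWEET4 was the member with the most stable deficit. Its CSP1-IP arrays in HF-RPL18 read 3.22, 3.92 and 3.51 in non-stress and 3.68, 3.97 and 4.2 in the cold, all below the total RNA arrays of 4.85 to 5.60. The deficit was −1.40 (SE 0.34, adjusted p = 0.0038) in non-stress, or −1.53 relative to all probe sets, and −1.55 (SE 0.34, adjusted p = 0.000914) in the cold, or −1.75 relative to all probe sets. In cold CSP1-FH it was −2.07 (SE 0.42, adjusted p = 0.00139), with 4.13 and 3.14 against 5.86 and 5.54. After loess normalisation these 3 values were −1.28 (adjusted p = 0.00622), −1.34 (adjusted p = 0.00427) and −2.0 (adjusted p = 0.00156), and all 3 stayed called. The non-stress call was lost without CSP1-IP array 1 (−1.24, adjusted p = 0.058) and the CSP1-FH call without cold CSP1-IP array 2 (−1.57, adjusted p = 0.106). In non-stress CSP1-FH the value was −0.71 (adjusted p = 0.216), not called.

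SWEET2 had the widest gap. In cold HF-RPL18 its CSP1-IP arrays read 3.95, 4.28 and 4.81, against 8.30, 7.56 and 7.69 in total RNA. No array came near the other pool, and the difference was −3.51 (SE 0.94, adjusted p = 0.00421), with −2.96 (adjusted p = 0.0216) after loess normalisation. In cold CSP1-FH the arrays read 5.86 and 4.21 against 8.32 and 6.98, a difference of −2.62 (SE 1.15, adjusted p = 0.118). The non-stress differences were −1.60 in HF-RPL18 (adjusted p = 0.234) and −2.23 in CSP1-FH (adjusted p = 0.156). None of those 3 passed, although CSP1-IP and total arrays did not overlap in any of them. With equal weights all 3 passed (adjusted p = 0.044 in non-stress HF-RPL18, and 0.0206 and 0.01 in non-stress and cold CSP1-FH). That setting called 7226, 8222 and 6267 of all probe sets in these comparisons, in place of 5058, 5744 and 3786.

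SWEET1 was lower in CSP1-IP by 1.32 in non-stress (SE 0.38, adjusted p = 0.0114) and by 1.59 in cold HF-RPL18 (SE 0.38, adjusted p = 0.00159). Its CSP1-IP arrays there read 5.84, 4.53 and 5.31 in non-stress and 6.49, 6.19 and 7.23 in the cold, below every total RNA array of the same condition. After loess normalisation neither value passed (−0.87 and −0.82, adjusted p = 0.137 for each). In cold CSP1-FH the difference was −1.97 (SE 0.46, adjusted p = 0.00437), and −1.50 (adjusted p = 0.043) after loess normalisation. The non-stress HF-RPL18 call was lost without CSP1-IP array 2 (−0.97, adjusted p = 0.162) or 3 (−1.37, adjusted p = 0.0524). The cold CSP1-FH call was lost without either CSP1-IP array (−2.13, adjusted p = 0.0559, and −1.81, adjusted p = 0.0983).

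SWEET11, the brightest member, read 7.78, 9.54 and 8.27 in CSP1-IP of cold HF-RPL18 against 9.89, 10.66 and 9.37 in total RNA. CSP1-IP array 2 overlapped with the lowest total array. The deficit of −1.44 (SE 0.51, adjusted p = 0.0231) did not pass after loess normalisation (−0.62, adjusted p = 0.39), with a weight for each array (adjusted p = 0.0818), without CSP1-IP array 1 (−1.07, adjusted p = 0.153) or 3 (−1.31, adjusted p = 0.0873), or once total array 2 was left out (−1.10, adjusted p = 0.0612). SWEET17 was at −0.98 in that comparison (adjusted p = 0.0528), at −1.25 without CSP1-IP array 2 (adjusted p = 0.0357) and at −0.24 after loess normalisation (adjusted p = 0.71). In non-stress its value turned from −0.27 to 0.17 in HF-RPL18 and from −0.13 to 0.47 in CSP1-FH with that normalisation, with no call.

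SWEET15 went the other way. Its CSP1-IP arrays in cold HF-RPL18 read 6.78, 5.78 and 5.64, all above the total RNA arrays at 4.60, 4.86 and 4.51. The excess was 1.41 (SE 0.34, adjusted p = 0.00181), or 2.66-fold, and 1.51 (adjusted p = 0.00278) after loess normalisation. It stayed called in all 7 alternative settings that hold CSP1-IP arrays and without any 1 of its 6 arrays. The excess was 0.54 in non-stress HF-RPL18 (adjusted p = 0.272), 0.83 in non-stress CSP1-FH (adjusted p = 0.144) and 0.50 in cold CSP1-FH (adjusted p = 0.418), with no call.

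Among the dim probe sets SWEET3 was called higher in CSP1-IP in non-stress CSP1-FH and cold HF-RPL18. Its values were 0.13 in non-stress HF-RPL18 and 0.01 in cold CSP1-FH. It was higher by 1.06 in non-stress CSP1-FH (SE 0.22, adjusted p = 0.00109), with 4.06 and 4.04 against 2.93 and 3.06, and it stayed called at 0.66 (adjusted p = 0.0287) after loess normalisation. In cold HF-RPL18 it was higher by 0.66 (adjusted p = 0.00518) but at 0.19 (adjusted p = 0.456) after loess normalisation. SWEET10 and SWEET16 gave values between 0.16 and 0.79 in the 4 comparisons, with no call, and between −0.06 and 0.46 after loess normalisation. The 7 SWEET genes outside the chosen loci, dim apart from SWEET13, leaned the same way. Their medians in non-stress and cold were 0.15 and 0.36 in HF-RPL18 and 0.64 and 0.26 in CSP1-FH. Called higher were 0 and 1 of them in HF-RPL18 and 2 and 1 in CSP1-FH, and none was called lower. The narrower spread of the CSP1-IP arrays and their larger GAPDH 3′ to 5′ difference accompany all of these CSP1-IP values, and their part in them was not tested.

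**Figure D4:**
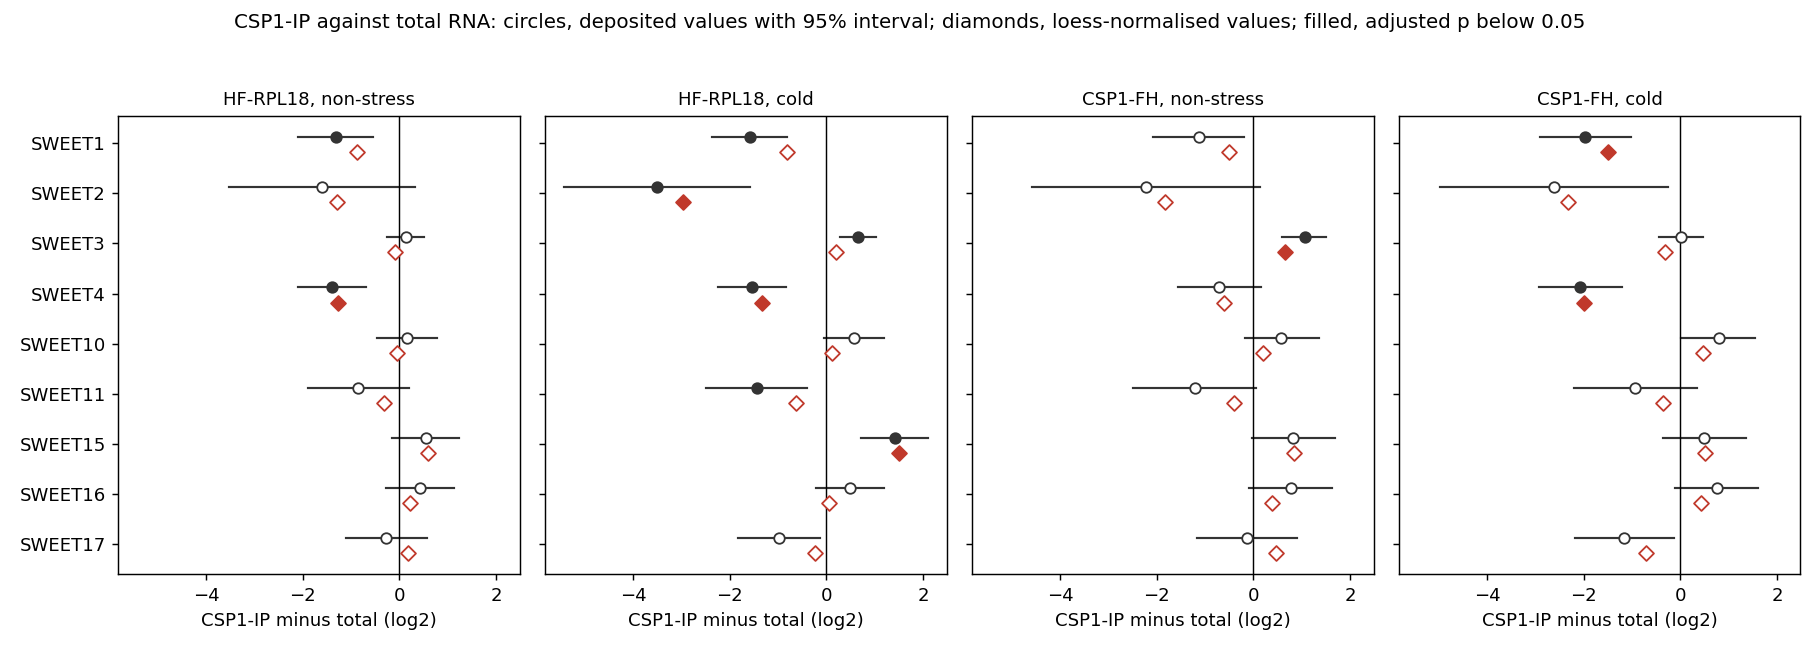
CSP1-IP minus total RNA on the log2 scale for each SWEET probe set, by line and condition: circles with 95% intervals are the deposited values, diamonds the loess-normalised values, and filled symbols were called. Loess normalisation brings SWEET1 and SWEET11 towards 0 and leaves SWEET4 called in 3 comparisons, SWEET2 and SWEET15 in cold HF-RPL18, SWEET1 in cold CSP1-FH and SWEET3 in non-stress CSP1-FH.

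Against polysomal RNA, SWEET1, SWEET2, SWEET4, SWEET11 and SWEET15 were called in cold HF-RPL18 as against total RNA, with SWEET17 in place of SWEET3. In non-stress HF-RPL18 SWEET1 (−1.50, adjusted p = 0.00623) and SWEET4 (−1.58, adjusted p = 0.00177) were lower (20.1% of all probe sets were called). In the cold 5 members were lower and 1 higher (35.7% of all): SWEET2 by −3.11 (adjusted p = 0.0146), SWEET4 by −1.91 (adjusted p = 0.000183), SWEET11 by −1.35 (adjusted p = 0.0456), SWEET17 by −1.22 (adjusted p = 0.0264) and SWEET1 by −1.12 (adjusted p = 0.0262), with SWEET15 higher by 1.21 (adjusted p = 0.00886). After loess normalisation 2 were lower, SWEET2 and SWEET4, and SWEET15 was higher. SWEET1 (−0.48, adjusted p = 0.443), SWEET11 (−0.51, adjusted p = 0.522) and SWEET17 (−0.61, adjusted p = 0.314) were then not called in the cold, nor was SWEET1 in non-stress HF-RPL18 (−1.12, adjusted p = 0.0564). In CSP1-FH the calls were SWEET3 in non-stress (0.88, adjusted p = 0.00685; 21.5% of all probe sets) and SWEET4 (−2.37, adjusted p = 0.000479) and SWEET1 (−1.60, adjusted p = 0.0231) in the cold (14.9% of all). Loess normalisation ended the CSP1-FH calls of SWEET3 (0.55, adjusted p = 0.0832) and SWEET1 (−1.18, adjusted p = 0.139). The comparisons with total and with polysomal RNA share their CSP1-IP arrays.

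Several of these calls against polysomal RNA were lost when 1 array was left out, often with little change in the difference itself. In cold HF-RPL18, leaving out CSP1-IP array 1 ended the calls of SWEET1 (−1.05, adjusted p = 0.0839), SWEET2 (−2.91, adjusted p = 0.0537), SWEET11 (−0.98, adjusted p = 0.229), SWEET15 (0.86, adjusted p = 0.0976) and SWEET17 (−1.24, adjusted p = 0.0585). The SWEET1 call was also lost without CSP1-IP array 2 (−0.90, adjusted p = 0.124) or polysomal array 3 (−1.0, adjusted p = 0.0569). Those of SWEET11 and SWEET17 were lost without CSP1-IP array 3 (−1.22, adjusted p = 0.14, and −0.92, adjusted p = 0.156) or polysomal array 2 (−1.05, adjusted p = 0.127, and −1.16, adjusted p = 0.0503), and that of SWEET11 also without polysomal array 1 (−1.31, adjusted p = 0.075). SWEET4 stayed called in cold HF-RPL18 without any 1 array. In non-stress HF-RPL18 SWEET1 was lost without CSP1-IP array 2 (−1.15, adjusted p = 0.106). In CSP1-FH leaving out either non-stress CSP1-IP array ended the SWEET3 call (0.87, adjusted p = 0.0628, and 0.89, adjusted p = 0.0901). Without cold CSP1-IP array 2 the CSP1-FH calls of SWEET4 (−1.87, adjusted p = 0.0611) and SWEET1 (−1.43, adjusted p = 0.224) were lost, and SWEET1 was also lost without CSP1-IP array 1 (−1.76, adjusted p = 0.127) or polysomal array 2 (−1.44, adjusted p = 0.0804).

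Within CSP1-IP, the cold minus non-stress difference gave no member call in either line (3.94% of all probe sets in HF-RPL18 and 0.312% in CSP1-FH), and 3 of 18 member tests had an unadjusted p below 0.05. SWEET15 stood at 1.43 in HF-RPL18 (SE 0.44, adjusted p = 0.0641), from 4.52, 4.57 and 4.83 to 6.78, 5.78 and 5.64. SWEET1 stood at 1.41 (SE 0.49, adjusted p = 0.0981). Both were non-overlapping between conditions, and both passed with equal weights (adjusted p = 0.000316 and 0.00101). That setting gives the more variable CSP1-IP arrays the same weight as the others. It called 6491 of all probe sets in this comparison, in place of 896. Without CSP1-IP cold array 2 SWEET15 passed too (1.57, adjusted p = 0.0412). SWEET2 differed by 0.24 (95% interval −2.27 to 2.75) in CSP1-IP of HF-RPL18, next to its rise of 2.15 in total RNA. Its CSP1-IP arrays there read 4.45, 3.69 and 4.18 in non-stress and 3.95, 4.28 and 4.81 in the cold. Those values lie in the lower part of the array range, and whether they can follow a change in the mRNA was not tested. In CSP1-IP of CSP1-FH SWEET2 read 3.70 and 3.03 in non-stress and 5.86 and 4.21 in the cold, without overlap or a call. Its rise in total RNA of that line was 2.06. The change of its recovery with cold was −1.91 (SE 1.33, 95% interval −4.64 to 0.82, adjusted p = 0.513) in HF-RPL18 and −0.39 (SE 1.63) in CSP1-FH. No member passed for a change of recovery with cold, where 0.488% of all probe sets were called in HF-RPL18 and 0.0044% in CSP1-FH. By unadjusted p below 0.05 there were 3 of 45 tests of changed loading or recovery: SWEET3 in both lines and SWEET4 in CSP1-FH. The 2 changes of the dim SWEET3 had opposite directions. Its recovery went from 0.13 to 0.66 in HF-RPL18 and from 1.06 to 0.01 in CSP1-FH.

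The design also asks whether the lines differ. No SWEET member was called for a difference between lines in its cold response, loading, recovery or level. For the cold response 0 of 54 tests had an unadjusted p below 0.05, and no probe set on the array was called in any of the 6 comparisons of lines. The rise of SWEET1 in total RNA was smaller in atcsp1-1 than in HF-RPL18 by 0.57, with a 95% interval of the difference from −1.24 to 0.11. In CSP1-FH it was smaller by 0.34 (−1.02 to 0.34). For SWEET2 the difference was −0.13 (−1.83 to 1.56) in atcsp1-1 and −0.08 (−1.78 to 1.62) in CSP1-FH, and for SWEET4 −0.32 (−0.94 to 0.30) and 0.26 (−0.36 to 0.88). The intervals of SWEET2 allow differences of more than 1.5 log2 units either way, so they do not show that the lines respond alike.

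For loading, 1 of 54 tests of line differences had an unadjusted p below 0.05, and for recovery 3 of 36 did. All 4 were of SWEET3. Recovery of SWEET3 in CSP1-FH exceeded that in HF-RPL18 by 0.93 in non-stress (95% interval 0.34 to 1.52, adjusted p = 0.789) and was −0.65 relative to it in the cold (adjusted p = 0.683). Neither direction passed, and 0.0044% and 0.00879% of all probe sets were called in those comparisons. The recovery of SWEET4 differed by 0.69 (95% interval −0.42 to 1.80) in non-stress and −0.52 (−1.63 to 0.59) in the cold, and that of SWEET15 by 0.29 and −0.91 (−2.01 to 0.19).

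For levels, 6 of 126 tests had an unadjusted p below 0.05 and none passed after adjustment, where between 0.0044% and 0.0264% of all probe sets were called in a comparison. SWEET4 took part in 3 of the 6. Its non-stress total RNA in atcsp1-1 (5.43 and 5.45) lay above that in HF-RPL18 by 0.49 (95% interval 0.05 to 0.93) and above that in CSP1-FH by 0.54, and its non-stress polysomal RNA lay above that in HF-RPL18 by 0.72 (0.20 to 1.25), each with an adjusted p of 1. For atcsp1-1 against HF-RPL18 the shares of all probe sets called were 0.0176% and 0.00879% in total RNA (non-stress and cold) and 0.022% and 0.0132% in polysomal RNA.

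Among other sugar genes the cold response in total RNA of HF-RPL18 was mixed. The alternative settings were not examined for these genes, so how firm their calls are was not tested. All 7 remaining SWEET genes had a probe set, and of these SWEET13, a sucrose transporter next to SWEET10 on chromosome 5, rose by 0.85 (SE 0.29, adjusted p = 0.0363). Of 6 measured monosaccharide transporter genes TMT1, a tonoplast carrier that loads sugar into the vacuole, rose by 0.58 (SE 0.19, adjusted p = 0.0233) and none fell. Of the 2 measured invertase genes FRUCT3, a vacuolar invertase, fell by 1.29 (SE 0.24, adjusted p = 0.000167). Of the 2 measured starch breakdown genes DPE1, a plastid enzyme of maltotriose metabolism, fell by 1.69 (SE 0.25, adjusted p = 1.16e-05), and neither measured gene of sucrose synthesis passed. None of the 6 sucrose-proton symporter genes had a named probe set. As a reference for the treatment, all 4 measured cold regulon genes rose, LTI30 most, by 8.11 (SE 0.30, adjusted p = 4.4e-17).

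The patterns most like those of the 3 members with the largest cold differences in total RNA of HF-RPL18 were looked up by Pearson correlation over the 16 group means. SWEET15 was the third by a narrow margin (0.56 against 0.54 for SWEET4), and SWEET4 had the larger difference in CSP1-FH (0.80 against 0.65). The groups share lines and replicate numbers, so this is a description without a test. Group means in CSP1-IP enter every correlation. They lay below those in total RNA for SWEET1 and SWEET2 and above them for SWEET15. For SWEET2 the closest probe sets were AT3G28200 (r = 0.987), UGT74D1 (0.982) and AT2G34460 (0.981). For SWEET1 they were AT5G42570 (0.973), AT1G71710 (0.97) and AT3G28200 (0.964), so that AT3G28200 was close to both. For SWEET15 they were GH3.17 (0.942), UPB1 (0.937) and UBP20 (0.933).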

How the data were processed

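The authors deposited log2 values for each probe set of Affymetrix ATH1 arrays, which the submitters' processing notes say were made with RMA. Those notes name no version, and whether all 38 arrays were processed at once was not stated. RNA was labelled with biotin by 3′ transcription in vitro, per the labels' protocols. Values were used as deposited. No array repeated another. Precision is limited by the number of arrays. The series calls the replicates biological; nothing more was given on separate plants.

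Of 22810 probe sets 64 controls were left out. The annotation gave 1 gene for 13513 (59.4%), several for 503 and none for 8730. Probe sets were joined to loci through gene IDs of RefSeq. All 9 measured members were named in every comparison. Of the other lists, the members with the largest passing rise and fall in total RNA of HF-RPL18 were named, and for 3 members the 3 most correlated probe sets. Members and lists were chosen with earlier results of these data known.

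Tests used limma 3.58.1 in R 4.3.3 (lmFit and eBayes) with 16 group means over all 38 arrays, array weights estimated per RNA pool, 22 residual and 4.32 prior degrees of freedom, 2-sided p-values and Benjamini-Hochberg adjustment over all 22746 probe sets. Differences between lines were contrasts in that model. The fit was also run on simulated data with known changes. Those arrays were independent of each other, so the dependence between same-numbered arrays was not tested. Alternatives were equal weights, a weight for each array, no CSP1-IP arrays, the compared groups alone, a replicate block, cyclic loess normalisation, no probe sets of the dimmest 25% (mean below 3.13), a variance trend, and leaving out each array. The fits without CSP1-IP arrays and with the compared groups alone gave all arrays equal weight.

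The replicate numbers were taken from the titles. In HF-RPL18 every same-numbered pair of total and polysomal arrays correlated above 0.1 (0.187 to 0.725), so the numbers pair those arrays. Pairs with a CSP1-IP array did not all do so, and the other lines have 2 numbers only.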

Additional observations from a re-analysis of the deposited data

How the results depend on the processing

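Among the results that passed in every setting run and without any 1 array were the rises of SWEET1 and SWEET2 in total RNA and of SWEET1 in polysomal RNA of HF-RPL18, and in CSP1-IP of cold HF-RPL18 the deficits of SWEET2 and SWEET4 and the excess of SWEET15 against total RNA. No called value changed sign. The next counts leave out comparisons called neither with the pool weights nor in any alternative setting other than leaving out an array. Of 453 further values from alternative settings 365 kept their side of the threshold, 38 lost it and 50 gained it, and without 1 array 248 of 310 kept it, 56 lost it and 6 gained it. Where calls were lost or gained the cause was not tested. The fits without CSP1-IP arrays and with the compared groups alone used fewer arrays and also no pool weights. The parts of these changes were not separated.

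With equal weights 2, 1 and 0 members were called for the cold response in total RNA of HF-RPL18, CSP1-FH and atcsp1-1, 1 and 0 in polysomal RNA of HF-RPL18 and CSP1-FH, 2 and 1 in CSP1-IP of HF-RPL18 and CSP1-FH, 0 for loading in cold HF-RPL18, 5 and 4 in non-stress and cold CSP1-FH for CSP1-IP against total as against polysomal RNA, and 1 for levels between lines (SWEET3 in non-stress CSP1-IP). Without the CSP1-IP arrays the total RNA counts were 2, 1 and 1. With the compared groups alone they were 1 in CSP1-FH and 1 in atcsp1-1, loading in cold HF-RPL18 gave 0, CSP1-IP against total RNA gave 4 in non-stress HF-RPL18 and 5 in cold CSP1-FH, and against polysomal RNA 4 and 4. Loess normalisation gave 1 in non-stress and 3 in cold HF-RPL18 for CSP1-IP against total as against polysomal RNA, and 0 and 1 against polysomal RNA in non-stress and cold CSP1-FH. A weight for each array gave 3 in cold HF-RPL18 and 2 in non-stress CSP1-FH against polysomal RNA. Without the dimmest probe sets 1 member was called in the cold response of CSP1-IP in HF-RPL18 and 2 against polysomal RNA in non-stress CSP1-FH. The variance trend moved no member count. Counts over all probe sets moved as well. For the cold response equal weights called 2447, 1295 and 1627 in total RNA and 6491 and 1968 in CSP1-IP. Loess normalisation called 4028 and 4827 for CSP1-IP against total RNA in HF-RPL18, in place of 5058 and 10373. The member counts are therefore no result about the members alone.

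The replicate block moved the cold response in polysomal RNA to 3 members in CSP1-FH and 2 in atcsp1-1, CSP1-IP against total RNA in CSP1-FH to 2 in non-stress and 4 in the cold, and against polysomal RNA to 3 and 4. SWEET2 gained the polysomal call in CSP1-FH (1.64, adjusted p = 0.0029) and atcsp1-1 (1.79, adjusted p = 0.000948), and SWEET4 in CSP1-FH (0.65, adjusted p = 0.0372). SWEET15 gained the total RNA call in CSP1-FH (adjusted p = 0.0279). SWEET2 gained that of CSP1-IP against total RNA in non-stress HF-RPL18 (adjusted p = 0.0227), non-stress CSP1-FH (adjusted p = 0.0102) and cold CSP1-FH (adjusted p = 0.00493). In these lines, and in CSP1-IP of HF-RPL18, samples share only a number: in CSP1-FH and atcsp1-1 there are 2 numbers. The block ended no call. Over all probe sets it called 3048 in polysomal RNA of CSP1-FH and 3757 in that of atcsp1-1, in place of 1804 and 2356. For CSP1-IP against total RNA in non-stress and cold CSP1-FH it called 5917 and 4136, in place of 5744 and 3786. Against polysomal RNA there it called 5297 and 3925, in place of 4890 and 3391.

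Leaving out 1 array at a time gave 2 to 3, 1 to 3 and 0 to 2 members for the cold response in total RNA of HF-RPL18, CSP1-FH and atcsp1-1, 1 to 2, 0 to 0 and 0 to 2 in polysomal RNA, and 0 to 1 and 0 to 0 in CSP1-IP. For loading in HF-RPL18 the counts were 0 to 1 in both conditions. Counts over all probe sets were not made for the fits that left out 1 array. CSP1-IP against total RNA gave 1 to 2 in non-stress and 5 to 8 in cold HF-RPL18, and 1 to 2 and 0 to 2 in CSP1-FH. Against polysomal RNA these were 1 to 2, 1 to 5, 0 to 2 and 0 to 2.

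Over all probe sets the alternatives called 2447 to 6548 for the cold response in HF-RPL18 total RNA (5148 with the pool weights), 1295 to 5162 in CSP1-FH (3686) and 1627 to 5688 in atcsp1-1 (4157). In polysomal RNA they called 1935 to 4888 (3304), 1042 to 3048 (1804) and 1307 to 3757 (2356), and in CSP1-IP 354 to 6491 (896) and 58 to 1968 (71). Loading in non-stress and cold gave 95 to 3298 (1690) and 645 to 5150 (3089) in HF-RPL18, 0 to 2291 (1012) and 0 to 1321 (422) in CSP1-FH, and 0 to 701 (148) and 0 to 1100 (340) in atcsp1-1. CSP1-IP against total RNA gave 4827 to 12672 (10373) in cold HF-RPL18, 3449 to 8222 (5744) in non-stress and 2366 to 6267 (3786) in cold CSP1-FH. Against polysomal RNA it gave 3935 to 6968 (4577) and 4396 to 10819 (8120) in HF-RPL18, and 3457 to 7492 (4890) and 2441 to 6033 (3391) in CSP1-FH. The lowest counts came with loess normalisation, equal weights or the compared groups alone.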

Other observations

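The 7 SWEET genes outside the chosen loci were dim, apart from SWEET13. On average SWEET13 read 4.42 over 38 arrays, with a range of 3.30 to 6.57. SWEET5, SWEET6, SWEET7, SWEET8, SWEET9 and SWEET14 averaged 2.98 to 3.17. In total RNA the cold difference of SWEET13 was 0.85 in HF-RPL18 (adjusted p = 0.0363), 1.02 in CSP1-FH (adjusted p = 0.0529) and 0.86 in atcsp1-1 (adjusted p = 0.102). SWEET9, known from floral nectaries, fell by 0.41 in CSP1-FH (adjusted p = 0.0268), which is a small change at the dim end of the array.

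TMT1 rose in HF-RPL18 and read 0.09 and 0.05 in CSP1-FH and atcsp1-1 (adjusted p = 0.877 and 0.933). TMT2, a tonoplast sugar carrier related to TMT1, rose in the cold in total RNA of CSP1-FH by 0.83 (adjusted p = 0.002) and of atcsp1-1 by 0.54 (adjusted p = 0.0401), and was at 0.39 in HF-RPL18 (adjusted p = 0.0647). FRUCT3 fell in all 3 lines, by 1.29, 0.92 and 1.71, and DPE1 fell by 1.69, 2.08 and 2.01 in HF-RPL18, CSP1-FH and atcsp1-1. The differences between lines were not tested for these genes. The alternative settings were not examined for them, nor for SWEET9 and SWEET13.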
